A study of Mus musculus with 6 samples.

Results

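The genes described are 7 HOX genes and 2 of their cofactor genes, Meis1 and Pbx3, in blood stem and progenitor cells of Raptor mutant and wild type mice. They were taken from a list of names (Hoxa3, Hoxa5, Hoxa7, Hoxa9, Hoxa10, Hoxb4, Hoxb5, Meis1 and Pbx3) by the array's gene annotation. The list was chosen with earlier results of these data known. All 9 were measured, out of 18193 genes in all. They are covered by 19 of the 34945 probe sets that name a single gene, and each gene is represented by its probe set with the highest mean over all arrays. Expression was measured on 6 one-colour arrays of sorted bone marrow cells from c57bl/6 mice; the sort kept cells that carried Sca1 and cKit and lacked Flt3 and lineage markers. In the Raptor mutant group (3 arrays), both Raptor alleles carried loxP sites around exon 6 and the mice had the MxCre transgene, whose recombinase is switched on through an interferon-responsive promoter in blood cells and also in other tissues. In the wild type group (3 arrays), the mice carried the same floxed alleles without MxCre, so that wild type means unrecombined. Both groups had received the interferon inducer pIpC (15 µg for each g of body weight, 3 injections within 5 days), and the sort took place 5 weeks later. The sources used here give neither the ages of the mice nor whether an array represents a single mouse or a pool. The labels call the gene Raptor, and its symbol is Rptor.

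HOX genes encode homeodomain transcription factors and lie in clusters in mammals, where neighbouring genes are often expressed together. HOX proteins bind DNA weakly on their own and gain specificity by pairing with TALE homeodomain proteins, of which the PBX and MEIS families are the main partners. In blood, Hoxa9 and Meis1 are high in stem and early progenitor cells and decline as cells mature, and the pair drives acute myeloid leukaemia in mice when kept on.

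Before the genes themselves, some features of the arrays bear on every value. Over all probe sets, which are not independent replicates, wild type arrays 2 and 3 stood apart: each correlated at 0.957 to 0.968 with the other arrays, whereas wild type array 1 correlated at 0.977 to 0.984 with the mutant arrays and the mutant arrays at 0.985 to 0.988 with one another. The Y-linked gene Kdm5d had a log2 signal of 3.69, 3.79 and 3.88 on mutant arrays 1 to 3, against 3.60, 10.55 and 9.53 on wild type arrays 1 to 3, and Xist was high on the 4 arrays without that signal. The labels give no sex, and apart from wild type array 1, which like the mutants lacks Y-linked signal, that signal and the genotype cannot be told apart. The brightest probe set of Rptor stood at 8.68, 7.99 and 8.33 in mutant and at 8.57, 8.17 and 7.59 in wild type, groups that overlap. Its log2 difference, mutant minus wild type, was 0.22 (limma adjusted p = 0.791), on the side opposite to a loss. The other Rptor probe sets disagreed, with overlapping groups and log2 differences of -0.32 (limma adjusted p = 0.685) and 0.99 (adjusted p = 0.564), the second also on the side opposite to a loss. Since the position of these probes with respect to exon 6 is not known here, the values do not test the deletion or the labelling. Of the markers of the sort, Kit was bright on all arrays (10.71 to 10.94 in mutant, 10.72 to 11.17 in wild type), as was Flt3 RNA (9.64 to 10.18 in mutant, 9.51 to 10.79 in wild type) although the cells were sorted as Flt3-negative, and Ly6a, which encodes Sca1, was not analysed here.

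None of the 9 genes passed the test, and 8 of them had a lower mean in the mutant. Across all genes limma called 20 changed between mutant and wild type at an adjusted p under 0.05 (0.11% of 18193), and 0 of these 9 were among them. At an unadjusted p under 0.05, 6 of the 9 were lower in mutant, where 4.24% of all genes were. The log2 difference, mutant minus wild type, was below 0 in 8 of the 9, where 59.6% of all genes were below 0. It ran from -1.08 for Hoxa5 to 0.05 for Hoxb4, with a median of -0.65, beside a median of -0.07 over all genes. In 5 genes (Hoxa3, Hoxa5, Hoxa9, Meis1 and Pbx3) every mutant value lay below every wild type value, which was so for 7.98% of all genes. The 9 genes are not independent of one another, since they were measured on the same 6 arrays and Hoxa genes are neighbours. They were also listed with earlier results of these data known. These counts therefore describe the set and were not tested as a set.

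**Figure D1:**
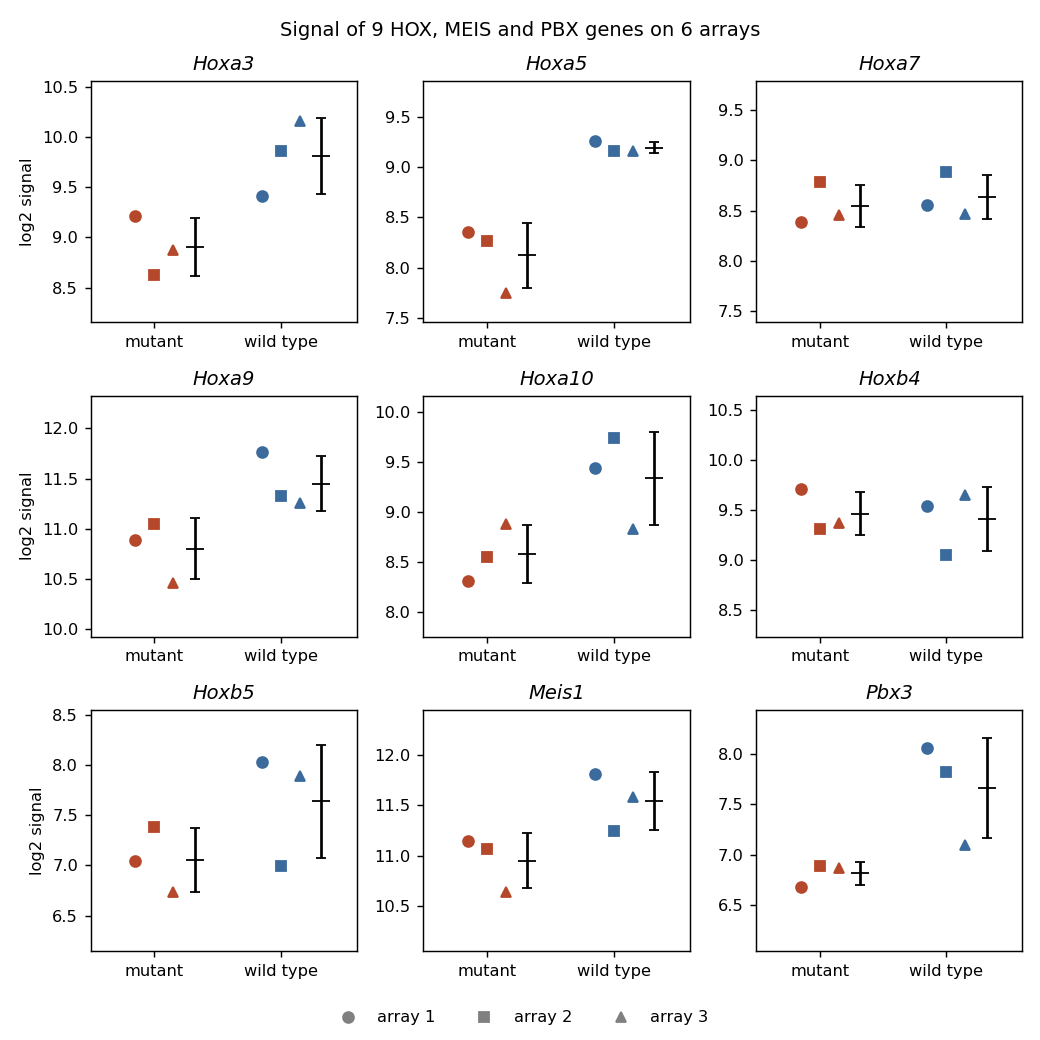
Log2 signal (vertical axis) of the 9 genes on the 3 mutant arrays (left, red) and the 3 wild type arrays (right, blue), with marker shapes for arrays 1 to 3 and the mean and SD of each group in black; every panel spans the same log2 range. Hoxa5 shows the widest gap between groups, 0.82, and Hoxa7 and Hoxb4 show overlapping groups.

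The Hoxa cluster holds 5 of the 9 genes. Hoxa5, which influences the choice between myeloid and erythroid fates of human progenitors, had a log2 signal of 8.35, 8.26 and 7.75 on mutant arrays 1 to 3, against 9.26, 9.16 and 9.16 on wild type arrays 1 to 3. The wild type arrays were nearly identical for this gene (SD 0.32 in mutant, 0.06 in wild type), and the highest mutant array was 0.82 below the lowest wild type array. Its mutant signal was 47.4% of the wild type signal, a log2 difference of -1.08 ± 0.19 (SE), with a 95% interval of -1.53 to -0.62. It ranked 79 among 18193 genes by p, with an adjusted p of 0.143 in limma.

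Hoxa9, the HOX gene most closely tied to stem cell self-renewal and to leukaemia, stood at 10.89, 11.05 and 10.46 in mutant and at 11.76, 11.33 and 11.26 in wild type. The groups did not overlap, with a gap of 0.21 between them, and the highest value was that of wild type array 1. Its log2 difference was -0.65 ± 0.22 (SE; 95% interval -1.16 to -0.14; limma adjusted p = 0.40), or 63.7% of the wild type signal. Hoxa3, which in mouse embryos restrains the step by which endothelium gives rise to blood, stood at 9.21, 8.63 and 8.87 in mutant and at 9.41, 9.86 and 10.16 in wild type. Wild type array 1 was here the lowest of its group, only 0.19 above the highest mutant array, the reverse of its place for Hoxa9. Its log2 difference was -0.90 ± 0.24 (SE; limma adjusted p = 0.267), and -0.50 against wild type array 1 alone.

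Hoxa10, which enlarges the pool of progenitors when overexpressed, had values of 8.31, 8.55 and 8.88 in mutant and of 9.44, 9.74 and 8.83 in wild type. Here the groups overlapped, as wild type array 3 lay just under mutant array 3. The log2 difference was -0.76 ± 0.27 (SE; limma adjusted p = 0.421), and with the mean of its probe sets it was -0.44. Hoxa7, which lies between Hoxa5 and Hoxa9 in the cluster and is raised together with Hoxa9 in leukaemias with MLL fusions, stood at 8.39, 8.78 and 8.46 in mutant and at 8.56, 8.88 and 8.47 in wild type. Its groups overlapped over most of their range and its log2 difference was -0.10 ± 0.19 (SE; 95% interval -0.53 to 0.34; limma adjusted p = 0.846). That interval lies wholly above the interval of Hoxa5, although a difference between the genes was not tested.

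The promoters of Hoxa3, Hoxa5, Hoxa9 and Meis1 are shown because these are the genes with separated groups for which a promoter was at hand. Each run holds 250 bases before and 50 bases after a gene start from RefSeq (GRCm38.p6), 5′ to 3′ on the gene's own strand, which is the minus strand for all of them: Hoxa3 at chr6:52213018-52213317, Hoxa5 at chr6:52204538-52204837, Hoxa9 at chr6:52227321-52227620 and Meis1 at chr11:19018920-19019219. Capitals mark the only match to either motif searched.
Hoxa3: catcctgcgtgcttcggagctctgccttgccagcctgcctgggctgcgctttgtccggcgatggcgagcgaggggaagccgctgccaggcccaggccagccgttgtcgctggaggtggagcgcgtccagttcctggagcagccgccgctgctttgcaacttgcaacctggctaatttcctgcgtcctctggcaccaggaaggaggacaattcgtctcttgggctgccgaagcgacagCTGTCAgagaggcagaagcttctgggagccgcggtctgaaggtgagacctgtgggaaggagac
Hoxa5: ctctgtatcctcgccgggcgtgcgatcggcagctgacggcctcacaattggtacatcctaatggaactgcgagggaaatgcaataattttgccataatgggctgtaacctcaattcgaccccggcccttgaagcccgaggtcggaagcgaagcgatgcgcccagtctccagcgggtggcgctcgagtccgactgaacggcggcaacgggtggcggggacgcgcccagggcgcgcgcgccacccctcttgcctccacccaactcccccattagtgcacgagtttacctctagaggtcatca
Hoxa9: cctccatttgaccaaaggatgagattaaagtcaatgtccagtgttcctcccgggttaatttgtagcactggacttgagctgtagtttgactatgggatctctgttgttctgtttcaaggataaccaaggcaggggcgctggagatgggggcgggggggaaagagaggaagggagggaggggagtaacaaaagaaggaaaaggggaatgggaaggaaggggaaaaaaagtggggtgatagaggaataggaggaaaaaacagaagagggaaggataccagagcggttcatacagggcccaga
Meis1: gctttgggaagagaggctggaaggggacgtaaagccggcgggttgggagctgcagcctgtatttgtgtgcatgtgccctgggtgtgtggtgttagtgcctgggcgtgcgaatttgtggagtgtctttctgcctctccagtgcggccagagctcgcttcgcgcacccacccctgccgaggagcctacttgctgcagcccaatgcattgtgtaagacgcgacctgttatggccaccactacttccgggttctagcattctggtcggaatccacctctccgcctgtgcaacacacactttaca

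The promoters were searched on both strands for the joint HOX-PBX motif TGATTNAT and the MEIS motif TGACAG. Promoters were matched for 7 of the 9 genes (8 promoters, with 2 for Hoxa10). The HOX-PBX motif was found in 0 of these 8, and in 3.22% of all 32851 promoters in the table. The MEIS motif was found in 1, at base -13 from the start of Hoxa3 on the opposite strand, and in 19.2% of all promoters, and no 2 matches overlapped. The 4 promoters printed differ in base composition, with 29 CG dinucleotides for Hoxa5, 20 for Hoxa3, 15 for Meis1 and 4 for Hoxa9, beside a median of 7 over all promoters. A match, or its absence, describes the letters in this window and says nothing about binding.

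The 2 genes of the Hoxb cluster differed little or varied widely. Hoxb4, which expands blood stem cells when overexpressed, stood at 9.71, 9.31 and 9.37 in mutant and at 9.54, 9.05 and 9.65 in wild type. The groups overlapped and the log2 difference was 0.05 ± 0.21 (SE; 95% interval -0.44 to 0.55; limma adjusted p = 0.929), with a sign that changed between settings. Hoxb5, a marker of long-term stem cells in mouse marrow, stood at 7.04, 7.38 and 6.74 in mutant and at 8.03, 6.99 and 7.89 in wild type. Wild type array 2 lay within the mutant range while the other wild type arrays lay above it. Its log2 difference was -0.58 ± 0.30 (SE; 95% interval -1.29 to 0.12; limma adjusted p = 0.567), and it was -0.98 against wild type array 1 alone, -0.91 without wild type array 2 and -0.38 without wild type array 1.

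Of the cofactors, Meis1, which stabilises HOX-PBX complexes on DNA and is needed to keep stem cells in the marrow, stood at 11.14, 11.07 and 10.64 in mutant and at 11.81, 11.24 and 11.58 in wild type. The groups were separate by 0.10, the smallest gap among the 5 genes whose groups did not overlap. Its log2 difference was -0.59 ± 0.22 (SE; 95% interval -1.09 to -0.09; limma adjusted p = 0.437), or 66.3% of the wild type signal. Pbx3, the PBX family member that works with HOXA9 and MEIS1 in leukaemia, stood at 6.68, 6.89 and 6.87 in mutant and at 8.06, 7.82 and 7.10 in wild type. The mutant arrays were tightly grouped (SD 0.11) and the wild type arrays were spread (SD 0.50), with wild type array 3 closest to the mutants. The log2 difference was -0.84 ± 0.25 (SE; 95% interval -1.43 to -0.25; limma adjusted p = 0.333).

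The dimmer probe sets of these genes lay on the low side in the mutant. All 10 of them had a log2 difference below 0, with a median of -0.45, where 56.4% of all probe sets were below 0. That share takes no account of signal level. Among genes at or below the median gene (mean log2 signal 7.55) 77.8% were below 0, and among genes above it 41.5%. The dimmer probe sets of Hoxa3, Hoxa10, Hoxb4 and Pbx3 lay under that level, and those of Hoxa5, Hoxa9 and Meis1 above it. The count of 10 was not compared with probe sets of like signal. In a fit with a row per probe set, 0 of the 19 were called by limma (0.0343% of 34945 were). Of the 10 dimmer ones, 1 had an unadjusted p under 0.05 with the mutant lower (3.66% of all probe sets), and 2 had separate groups with the mutant lower (7.2% of all probe sets). The second brightest Hoxa3 probe set stood at 7.12, 6.43 and 6.88 in mutant and at 7.58, 7.64 and 7.70 in wild type, which did not overlap, for a difference of -0.83 ± 0.21 (SE), close to that of its brightest. The 2 others of Hoxa3 had differences of -0.25 and -0.51 with overlapping groups. The dimmer Hoxa9 probe set gave -0.50 ± 0.24 with separate groups, and those of Meis1 gave -0.64 ± 0.32 and -0.20 ± 0.24 with overlapping ones (SE). Hoxa5 had a disagreement: its dimmer probe set (of the kind whose suffix x marks probes shared with other sequences) stood at 8.31, 7.80 and 7.36 in mutant and at 8.64, 8.06 and 7.95 in wild type, which overlapped, and gave -0.39 ± 0.29 (SE). For Pbx3 the dimmer probe set gave -1.62, with an SE of 0.78 and wild type arrays at 6.19, 7.89 and 4.49. This probe set and the second brightest of Hoxa3 carry the suffix s, and whether their probes are shared with other sequences was not examined. The dimmer probe sets of Hoxa10 and Hoxb4 gave -0.12 and -0.10, and for Hoxb4 this sign is opposite to that of its brightest probe set (0.05).

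**Figure D2:**
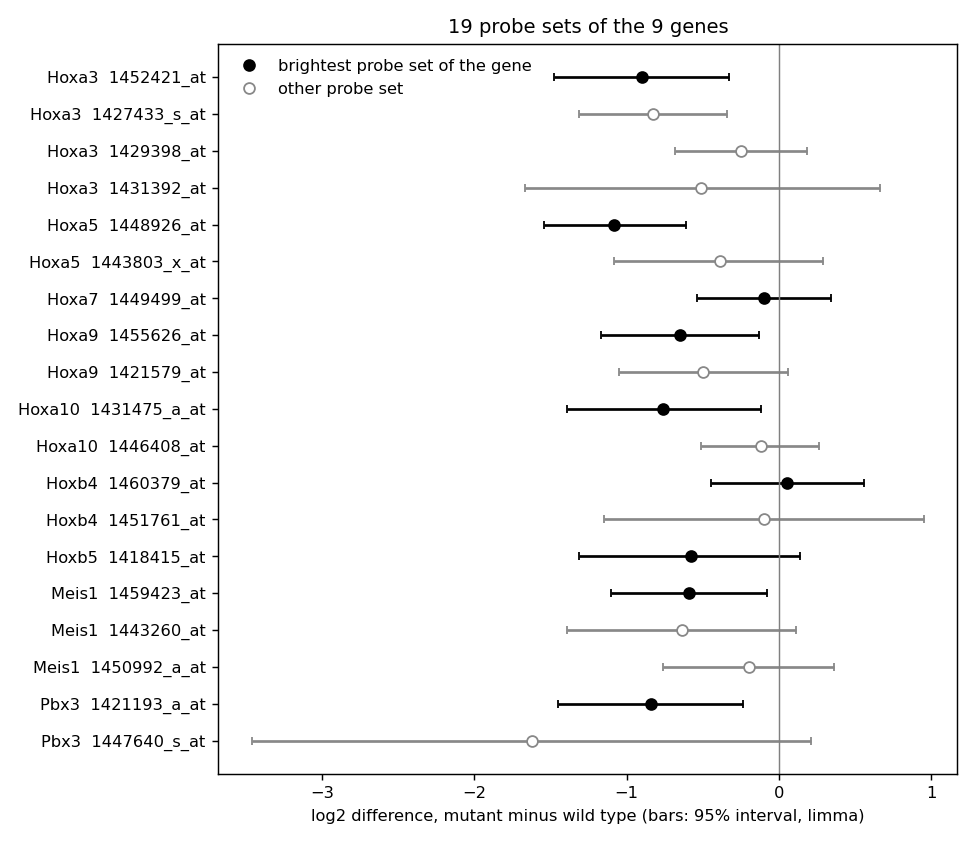
Log2 difference, mutant minus wild type (horizontal axis), of all 19 probe sets with 95% intervals from the limma fit with a row per probe set; filled points are the brightest probe set of each gene and open points the others. Of the 19 points, 18 lie below 0, from -1.62 for a dim Pbx3 probe set to -0.10, and Hoxb4 stands at 0.05.

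Signal level bears on how the count of negative differences reads. Over all genes 59.6% had a difference below 0, but this share was 77.8% among genes at or below the median gene (mean log2 signal 7.55) and 41.5% among genes above it. Of the 9 genes, 7 had a mean above the median gene, and Hoxb5 and Pbx3 lay under it. Mutant values all below wild type values occurred in 7.28% of the genes above the median gene and in 8.67% of the others.

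**Figure D3:**
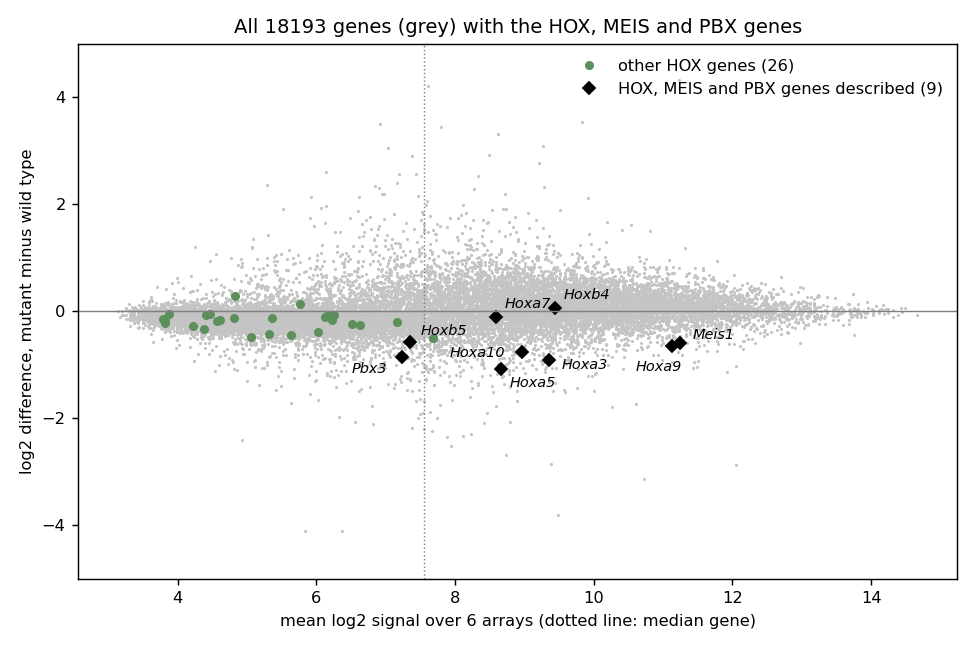
Mean log2 signal over the 6 arrays (horizontal axis) and log2 difference, mutant minus wild type (vertical axis), of all 18193 genes (grey), the 9 genes described (black diamonds) and 26 other HOX genes (green); the dotted line marks the median gene at 7.55. Dim genes crowd just below 0, and 7 of the 9 black diamonds stand to the right of the dotted line.

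The arrays did not contribute evenly. Mutant array 3 held the lowest value in 4 of the 9 genes and wild type array 1 the highest in 5. Expressed relative to each gene's mean over the 6 arrays, the median of the 9 genes was -0.24, -0.18 and -0.49 on mutant arrays 1 to 3 and 0.56, 0.29 and 0.21 on wild type arrays 1 to 3, so that every mutant array lay below every wild type array in this measure. Against wild type array 1 alone, the array that like the mutants lacks Y-linked signal, the median log2 difference of the 9 genes was -0.86 and all 9 were below 0, Hoxa7 by 0.02 and Hoxb4 by 0.07. In that fit the spread comes from the mutant arrays alone and wild type is assumed to vary like them, and 6 of the 9 had an unadjusted p under 0.05 (4.56% of all genes were lower in that way). Set against wild type arrays 2 and 3, the 3 mutant arrays gave a negative difference in 8 of 9, with 3 at an unadjusted p under 0.05, where 13.2% of all genes were lower. All mutant values lay under wild type array 1 in 7 of the 9 genes (22.3% of all genes), and under both wild type arrays 2 and 3 in 5 of the 9 (29.5%). The Hoxa5 difference was the steadiest, -1.14 against wild type array 1 and -1.04 against the other two.

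**Figure D4:**
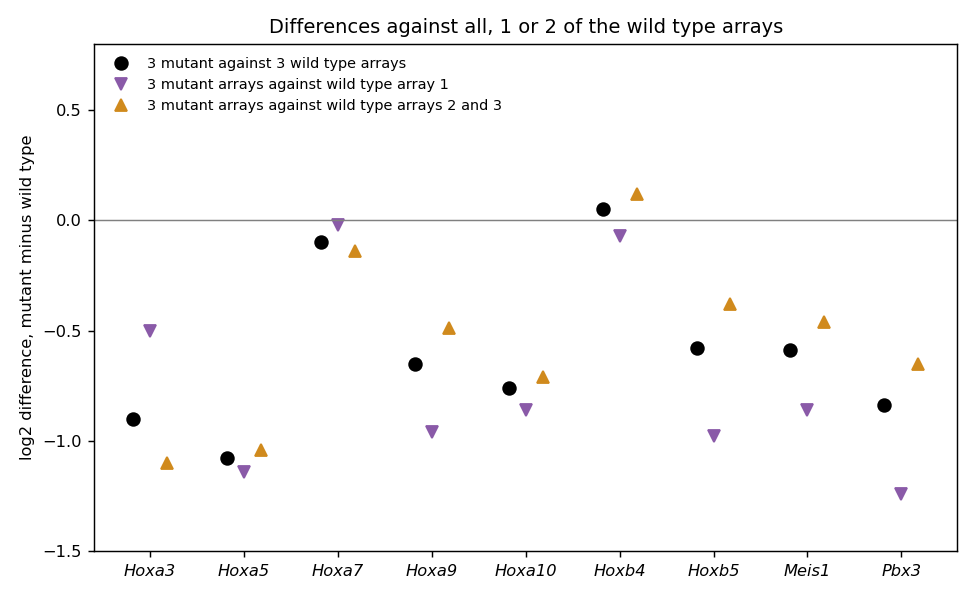
Log2 difference, mutant minus wild type (vertical axis), of each gene with all 6 arrays (black circles), against wild type array 1 alone (purple) and against wild type arrays 2 and 3 (orange). The 3 estimates lie within 0.10 of each other for Hoxa5, from -1.14 to -1.04, and furthest apart for Hoxa3 (-0.50 and -1.10), Hoxb5 (-0.98 and -0.38) and Pbx3 (-1.24 and -0.65).

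Marker genes of several cell types also differed in summed signal between the groups. The 5 measured stem cell markers had a summed signal of 3629 to 4025 in mutant and of 5909 to 6877 in wild type, with log2 differences below 0 in 4 and above 0 in 1. Mecom, Hlf and Procr had separate groups with the mutant lower, Fgd5 had a log2 difference of -0.92 and Slamf1 one of 0.25, both with overlapping groups. Over all genes, groups were separate with the mutant lower in 7.98% and with the mutant higher in 8.08%. The 6 neutrophil markers summed to 1776 to 5521 in mutant and 18062 to 26675 in wild type, with all 6 lower and separate. Mast cell and basophil markers summed to 4685 to 7486 in mutant and 1772 to 2570 in wild type, with 4 of 6 higher and separate, and macrophage markers to 1307 to 2029 in mutant and 522 to 825 in wild type, with 4 of 6 higher and separate. Cd68, a macrophage marker, had log2 signals of 9.20 to 9.70 in mutant and 7.70 to 8.21 in wild type, and log2 differences were above 0 in 5 of the 6 macrophage markers. Markers of megakaryocytes summed to 1730 to 2643 in mutant and 4004 to 4568 in wild type, with 2 of the 5 (Pf4 and Ppbp) separate and lower in mutant, while Itga2b and Gp1bb had log2 differences of 0.01 and -0.09 beside -1.73 for Pf4. The sums of B cell markers were 366 to 476 in mutant and 480 to 652 in wild type, those of T cell markers 259 to 298 in mutant and 260 to 355 in wild type, and those of erythroid markers 2238 to 5397 in mutant and 1284 to 3890 in wild type, with 0 separate in these 3 lists. In sorted cells measured in bulk, fewer cells of a type and less RNA per cell cannot be told apart, and the part of these markers in the HOX values was not tested.

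The other HOX genes were dim and showed small differences. Of 32 further HOX genes listed, 26 were measured by a probe set of their own, 0 were called in either direction by limma and 0 had an unadjusted p under 0.05. Their log2 differences were below 0 in 24 of 26, with a median of -0.16, and 25 of the 26 lay at or below the median gene, a range in which 77.8% of genes were below 0. Mutant values lay below all wild type values in 2 of 26, about the share of all genes at or below the median gene (8.67%). Hoxb3, the one above the median gene and a gene of the same cluster as Hoxb4 and Hoxb5, stood at 7.36, 7.75 and 7.19 in mutant and at 8.54, 7.43 and 7.83 in wild type, which overlapped. It had a log2 difference of -0.50, and Hoxb9, Hoxa13 and Hoxa2 had -0.43, -0.49 and -0.45, with limma adjusted p of 0.559 to 0.608 over the 4.

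The other TALE genes, listed together with the PBX-binding Pbxip1, lay on both sides of 0. Of the 9 measured, Pbxip1 included, 0 were called and 4 were below 0, with a median log2 difference of 0.08. Tgif2, a repressor of the TALE family, stood at 10.32, 10.50 and 10.46 in mutant and at 9.75, 10.04 and 9.06 in wild type, with all mutant values above all wild type values. Its difference was 0.81 ± 0.25 (SE; limma adjusted p = 0.349), opposite in sign to those of Meis1 and Pbx3. Pbx4, Pknox1 and the PBX-binding Pbxip1 had differences of 0.36, 0.32 and -0.21 with overlapping groups.

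Chromatin regulators that set HOX expression were near 0 as groups. The 15 genes of MLL and DOT1L complexes, which keep Hoxa genes on, had a median of 0.01 with 7 below 0 and 0 called. Among them was Mllt3, a subunit that reads acetylated histones and helps to maintain human stem cells. Mllt3 stood at 10.90, 10.46 and 10.62 in mutant and at 11.28, 11.39 and 11.18 in wild type. Its groups were separate, with a difference of -0.62 ± 0.17 (SE; limma adjusted p = 0.286). Kmt2a, which encodes MLL itself, had a difference of 0.29, Rbbp5 one of 0.49 and Mllt1 one of -0.24, with overlapping groups. The 17 measured genes of Polycomb complexes, which silence HOX clusters, had a median of 0.09 with 6 below 0 and 0 called. Groups were separate with the mutant lower in 2 of the 17 (7.98% of all genes) and with the mutant higher in 2 (8.08%). Among these were Asxl1 and Phc1, separate by only 0.01 and 0.03, with differences of 0.33 and -0.33. Pcgf2 and Bmi1 had 0.41 and 0.32 with overlapping groups.

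Genes known as targets of HOXA9 or MEIS1 in blood cells had differences of both signs. All 11 were measured, 0 were called, 6 were below 0 and the median was -0.19. Groups were separate with the mutant lower in 3 of the 11 (7.98% of all genes) and with the mutant higher in 2 (8.08%). Pf4, which encodes platelet factor 4 and is activated by MEIS1 with PBX, stood at 10.49, 9.18 and 9.55 in mutant and at 11.37, 11.48 and 11.57 in wild type. Its groups were separate, with a difference of -1.73 ± 0.32 (SE; limma adjusted p = 0.143), and it is also a megakaryocyte marker counted above. Trib2, a pseudokinase induced by MEIS1 in leukaemia, stood at 9.29, 8.50 and 9.53 in mutant and at 7.35, 7.97 and 6.89 in wild type. These too were separate, the other way round, with a difference of 1.70 ± 0.35 (SE; limma adjusted p = 0.157). Pim1, a survival kinase and HOXA9 target, had a difference of 0.62 ± 0.20 with separate groups, and Erg, a stem cell transcription factor, one of -0.55 ± 0.26 with overlapping groups (SE).

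**Figure D5:**
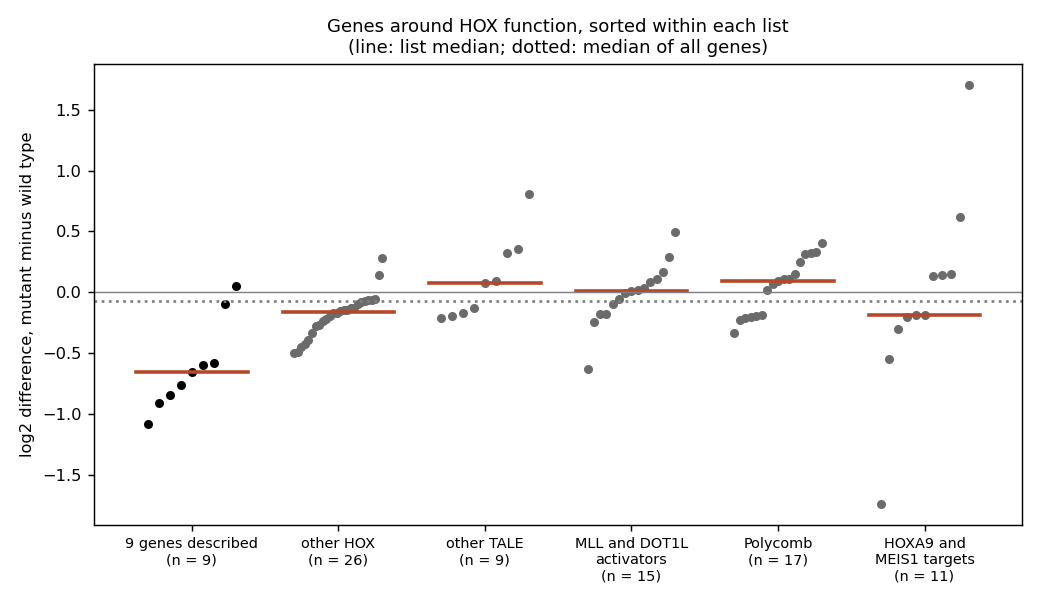
Log2 difference, mutant minus wild type (vertical axis), of each gene in the lists around HOX function, sorted within a list, with the list median as a red line and the median of all genes as a dotted line at -0.07. The median of the 9 genes is -0.65, and those of the other lists run from -0.19 for the targets to 0.09 for Polycomb genes.

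Genes with the most similar profiles were sought for Hoxa9, Hoxa5 and Meis1 among the other 9089 genes above the median gene, by the root mean square distance between log2 profiles centred over the 6 arrays. For Hoxa9 these were Iscu, which builds iron-sulphur clusters, at a distance of 0.10, and Sfi1 and Sertad1 at 0.12 each, where Hoxa9 itself varied by 0.40 around its mean. The nearest to Hoxa5 were Ptms at 0.10 and Hmgn3, a nucleosome-binding protein, and Alcam, an adhesion molecule, at 0.13 each, where Hoxa5 varied by 0.57. Nearest to Meis1 were Cers4, a ceramide synthase, at 0.05, Ptgr1 at 0.06 and Alkbh4 at 0.09, where Meis1 varied by 0.37. Likeness over 6 arrays is a description only.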

How the data were processed

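RNA from 3 Raptor mutant and 3 wild type samples was hybridised to 1 array each, after amplification with the Ovation Pico WTA System per the labels' protocols. The authors deposited RMA values, per the submitters' processing notes: an intensity for each probe set on each array. The sources used here do not state the version or settings of RMA. The deposited intensities are linear (7.6 to 33795), so log2 was taken. Array medians were 6.85 to 6.94 (log2). Of 45101 probe sets, 34945 named a single gene, 932 named several, 9160 named none and 64 were controls, and only the first were used. For each gene the probe set with the highest mean was kept (18193 genes), with no detection filter.

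The test of mutant against wild type was limma 3.58.1 (R 4.3.3; lmFit, then eBayes, with no covariate), two-sided, with Benjamini-Hochberg adjustment over all genes. SE are those of limma and intervals are 95%. The procedure was tested on simulated data. Members and lists were chosen with earlier results of these data known. Named genes were all members, the 4 genes of each other list with the smallest p and any called; of the marker lists, those a statement needs are named. Nothing says that the arrays come from separate mice, so the spread behind each p-value may be partly technical, and the number of arrays limits the precision. Sequences are from RefSeq GRCm38.p6, and symbols come from the array's annotation table.

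Alternatives tried were a block for the replicate number, centring arrays on their medians, renewed quantile normalization, averaging a gene's probe sets, a row per probe set, dropping the lower 25% or 50% of genes by mean, trend and robust fitting, array weights, Y-linked signal as a covariate, wild type arrays 2 and 3 left out, each array left out and adjusted p under 0.10. Counts of separate groups without wild type arrays, and of member probe sets at adjusted p under 0.10, were added after the data were seen.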

Additional observations from a re-analysis of the deposited data

How the results depend on the processing

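Under all 17 alternative fits and at an adjusted p under 0.10, 0 of the 9 genes were called by limma, with 3 to 6 at an unadjusted p under 0.05 in each fit. Their smallest adjusted p was 0.119 (without wild type array 1). In that fit 3 of the 9 and 3938 of all 18193 genes had an unadjusted p under 0.05 in limma, in either direction. In the main fit these numbers were 6 and 1828. Counted with the mutant lower only, all genes gave 2409 (13.2%) without wild type array 1 and 771 (4.24%) in the main fit. The 9 genes kept their direction in 143 of 151 alternative values. Exceptions were Hoxb4, at -0.02 both after renewed quantile normalization and when a gene's probe sets were averaged, -0.10 with Y-linked signal as a covariate, -0.07 with wild type arrays 2 and 3 left out and -0.13 to 0.17 when leaving out 1 array at a time, and Hoxa7, at 0.00 with the Y covariate and -0.22 to 0.02 when leaving out 1 array. Hoxb5 and Pbx3 have no value with the lower 50% of genes left out. With the Y covariate, which also sets the mutants against wild type array 1, the median of the 9 genes was -0.87.

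The count over all genes was 20 in the main test, 10 with the replicate block, 12 with every probe set as a row, 40 with trend and robust fitting, 8 with array weights and 49 at an adjusted p under 0.10. It was 0 with the Y covariate (1149 at an unadjusted p under 0.05) and with wild type arrays 2 and 3 left out (1729). Leaving out 1 array gave 5 to 31: 10 and 9 without mutant arrays 1 and 3, 31 without wild type array 1 and 5 without wild type array 3. The cause was not tested. Leaving out 1 array gave 0 to 1 called genes of the other HOX-related lists, the 1 being Pf4 without mutant array 1 (log2 difference -2.11, adjusted p = 0.0474). The labels give same-numbered arrays no link beyond the number. Deviations from group means correlated at 0.184, -0.026 and 0.063 across genes for numbers 1 to 3. Between arrays of different number they correlated at -0.156 to 0.094, and these values do not settle whether arrays were paired. The replicate block left 0 of the 9 genes called.

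The number of arrays limits precision, and no detection calls were used for dim probe sets.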
